A study of Homo sapiens with 12 samples.

Results

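Sites of the RNA-binding protein IGF2BP3 were compared between 2 pairs of PAR-CLIP libraries, a first pair whose titles carry no bio label and a second pair labelled bio2. A site of a pair was a region with a called cluster in both of its libraries, on the same strand and overlapping by 1 nt or more, merged into one interval. The first pair had 4865 sites and the bio2 pair 4290. After merging, 3112 sites belonged to the first pair alone (first-only), 2528 to the bio2 pair alone (bio2-only) and 1702 to both (common), 7342 in all, out of 45174 merged clusters of the 12 libraries of the series. These 4 libraries held 25764 of the 102250 clusters. Membership followed from position alone, so the class of a site is its definition and not a finding.

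The study mapped the RNA contacts of METTL1, WDR4 and the 3 IGF2BP proteins in the human liver cancer cell line HepG2, with 2 libraries for each protein except IGF2BP3, which had 4. Every library, of both IGF2BP3 pairs and of IGF2BP1, came from wildtype HepG2. Each replicate took 8 plates of 15 cm, with 4 µL of 1 M 4-thiouridine per plate for 14 h, crosslinking at 0.15 J/cm2 of 365 nm light given 2 times, and RNase T1 at 0.1 and later 10 U/µL for 15 min. The protocols in the labels are the same for both IGF2BP3 pairs, and what the bio2 label stands for is not given in the sources used here. Anything else that differed between the pairs cannot be told apart from the label. No input or mock library was analysed here, and HepG2 is a single tumour line.

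IGF2BP3 belongs to the family of insulin-like growth factor 2 mRNA-binding proteins. IGF2BP3 and IGF2BP1 are abundant in the embryo, largely silent in most adult tissues and made again in many tumours, while IGF2BP2 is found in many adult tissues. IGF2BP3 binds RNA directly. Its RRM and KH domains contact mRNA, and the family is known for stabilising, localising and controlling the translation of its targets. Short elements built around CA dinucleotides, among them CAUH (CAU followed by A, C or U), are a known preference of the KH domains. In PAR-CLIP, incorporated 4-thiouridine crosslinks to the bound protein, and reads with the resulting T-to-C changes mark the contact.

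Sites of the 3 classes are shown by 30 nt windows from the genes with the most sites of each class, read from hg38 on the transcribed strand, with CATA, CATC and CATT (CAUH in RNA) in capitals. First-only sites are shown from coding sequence and from 3' UTRs:
ALMS1, first-only, coding sequence, chr2:73449937-73449966, plus strand: caactgtaacctcaacttcctactcacaac
ARID2, first-only, coding sequence, chr12:45852244-45852273, plus strand: aaaaCATTccaaatCATAaaacttccaatc
IGF2, first-only, 3' UTR, chr11:2132680-2132709, minus strand: tccccacaCATAaaaaatcaaaaCATTaaa
LCOR, first-only, 3' UTR, chr10:96963823-96963852, plus strand: CATCtaaaataaattctctccaCATAtaaa

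The bio2-only sites are shown from 4 mRNAs and from a pair of snoRNAs, because small noncoding RNAs held sites of this class. The snoRNA windows are the middle of the widest single-copy site in a gene named SNORD and in one named SNORA:
APOB, bio2-only, coding sequence, chr2:21011977-21012006, minus strand: cccatggtcttgagttaaatgctgaCATCt
FN1, bio2-only, coding sequence, chr2:215372327-215372356, minus strand: aacccttccacaccccaatcttcatggacc
PEG10, bio2-only, 3' UTR, chr7:94665711-94665740, plus strand: ccctcaaaatttattcctgttcagcttctc
MAN1A1, bio2-only, 3' UTR, chr6:119178144-119178173, minus strand: ttatgacctgctttctgtttttcaatatca
SNORD17, bio2-only, C/D box snoRNA, chr20:17962862-17962891, minus strand: caagcctcagttcctgttctaggaacttga
SNORA32, bio2-only, H/ACA box snoRNA, chr11:93731001-93731030, minus strand: agtaggttttctatctgctactttgctagc

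Common sites, found in all 4 libraries, are shown from the same kinds of region, and for APOB, FN1 and IGF2 they lie in a gene that also appears above:
APOB, common, coding sequence, chr2:21008885-21008914, minus strand: atccttaacaccttccaCATTccttccttt
FN1, common, coding sequence, chr2:215410053-215410082, minus strand: CATAccaggccacttaaactcctacaccat
IGF2, common, 3' UTR, chr11:2130014-2130043, minus strand: ccaggaggtccgaagctctgtgggacctct
MBNL3, common, 3' UTR, chrX:132378830-132378859, minus strand: ataaaaCATTaacccctaattcactcttct

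The 4 libraries were of similar size, with 6467 and 6831 clusters in the first pair and 6457 and 6009 in the bio2 pair. Within a pair, 76.0% and 71.6% of the first-pair clusters and 68.1% and 73.0% of the bio2 clusters overlapped a cluster of the partner library. Across pairs, 40.3% to 43.3% of a library's clusters overlapped a cluster of either library of the other pair. The files hold no read counts, so the depth behind a cluster was unknown, and where no cluster was called binding may still have occurred. The highest group number in the cluster names was 11311 and 12231 in the first pair and 22556 and 20207 in the bio2 pair. The base before a cluster, where RNase T1 cuts, was G for 94.7% and 94.6% of the first-pair clusters and for 89.0% and 88.7% of the bio2 clusters. The part of these differences in the results below was not tested. Exonic clusters were found for 7 of 15 hepatocyte markers in the first pair and for 10 of 15 in the bio2 pair, with sums of 40 and 42 against 75 and 72 clusters. APOB alone gave 23 and 22 against 44 and 43 of these. FGB had 3 and 3 against 2 and 2, and HNF4A 2 and 4 against 2 and 3. AFP, APOA1, APOA2 and TTR were at 0 in all 4 libraries, as were all 8 markers of blood, endothelial, stromal and muscle cells.

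The pairs differed in where their clusters lay in transcripts. The 3' UTR held 41.5% of the clusters in each library of the first pair and 35.5% in each bio2 library. Coding sequence held 13.5% and 12.9% in the first pair against 21.02% and 19.9% in the bio2 pair, and introns 21.9% and 21.02% against 15.6% and 15.6%. For these 3 regions the libraries of a pair lay close together and the pairs did not overlap. The differences, bio2 minus first, were -6.01, 7.22 and -5.87 percentage points, each larger than the gap between the libraries of either pair (two-sided exact permutation test over 6 splits, p = 0.333, the smallest this design allows, adjusted p = 0.333 over 7 measures). A design of 2 libraries against 2 cannot reach 0.05. Where the replicates of a pair were not separate cultures, this spread is technical.

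**Figure D1:**
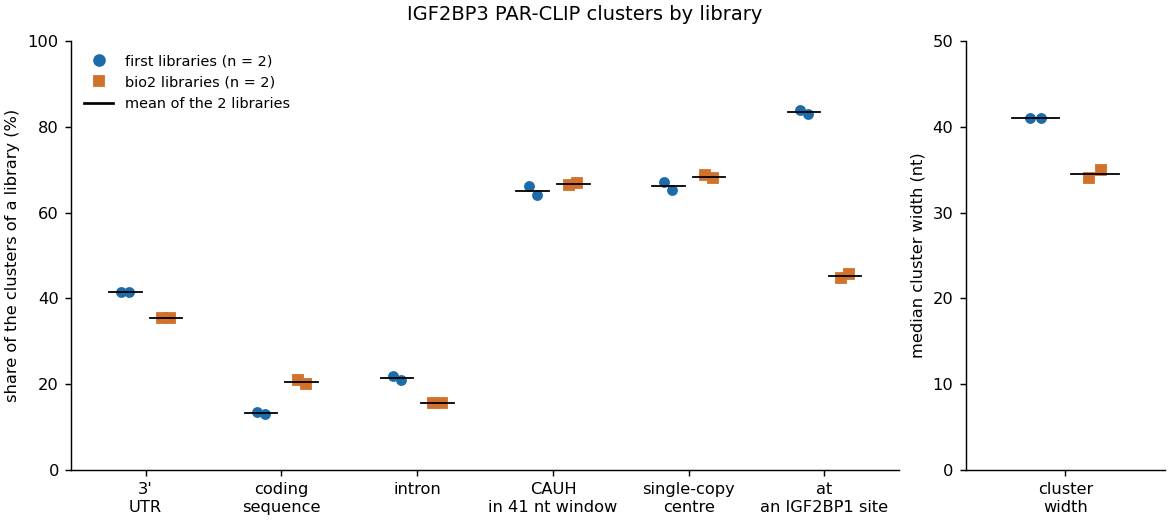
Left, the share of a library's clusters (y axis, %) in 3 transcript regions, with CAUH in the 41 nt window, with a single-copy centre, and at an IGF2BP1 site. Right, the median cluster width (y axis, nt). Circles are the 2 first libraries, squares the 2 bio2 libraries and lines their means. The pairs lie furthest apart for overlap with IGF2BP1 sites, 84.0% and 82.9% against 44.8% and 45.7%.

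Clusters were narrower in the bio2 libraries, with a median width of 34 nt and 35 nt against 41 nt in both first libraries, a difference of -6.5 nt. CAUH was present in the 41 nt window around the midpoint of 66.1% and 64.1% of the first-pair clusters and of 66.5% and 67.0% of the bio2 clusters. That difference of 1.64 points was smaller than the 2.01 points between the first libraries, and its sign turned with the window. It was -1.38 points in the clusters as deposited and -1.15 points in clusters widened by 10 nt. The central 20 nt occurred once in hg38 for 67.1% and 65.4% of the first-pair clusters and for 68.7% and 68.0% of the bio2 clusters, a difference of 2.13 points. The exact permutation p was 0.333 for each of these 3 measures too.

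Of the first-pair sites, 1753 (36.0%, 95% Wilson interval 34.7% to 37.4%) overlapped a bio2 site, and of the bio2 sites 1762 (41.1%, 39.6% to 42.6%) overlapped a first-pair site. These and the following intervals cover counting error over sites and not the spread between libraries. Most sites of one pair alone had no cluster at all in the other pair. Among first-only sites, 2543 (81.7%) had none in either bio2 library and 569 (18.3%) had one in a single library. Among bio2-only sites, 2126 (84.1%) had none and 402 (15.9%) one.

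Sites common to both pairs lay mainly in mature mRNA, and the classes of one pair alone departed from them in different ways. Of the common sites, 831 (48.8%, 46.5% to 51.2%) were in 3' UTRs, 358 (21.03%, 19.2% to 23.03%) in coding sequence and 144 (8.46%, 7.23% to 9.88%) in introns. First-only sites were in 3' UTRs in 1317 cases (42.3%, 40.6% to 44.1%), in coding sequence in 328 (10.5%, 9.51% to 11.7%) and in introns in 769 (24.7%, 23.2% to 26.3%). Bio2-only sites were in 3' UTRs in 741 cases (29.3%, 27.6% to 31.1%), in coding sequence in 506 (20.02%, 18.5% to 21.6%) and in introns in 399 (15.8%, 14.4% to 17.3%). The coding sequence share of bio2-only sites was thus near that of common sites, and that of first-only sites was lower. Introns of the long noncoding RNAs ENSG00000280441 and ENSG00000278996 held many of the common and bio2-only intron sites. They had 28 and 16 common, 44 and 23 bio2-only, and 5 and 3 first-only intron sites. Both were named after their values had been seen.

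Bio2-only minus first-only, the coding sequence share differed by 9.48 points (Newcombe 95% interval 7.59 to 11.4), the 3' UTR share by -13.0 points (-15.5 to -10.5) and the intron share by -8.93 points (-11.0 to -6.84). The 3' UTR difference was the least stable of the 3. It was -2.68 points (-5.93 to 0.60) among clusters at or above their library's median width, where coding sequence differed by 11.8 points and introns by -13.6 points. With single-copy clusters alone the 3' UTR difference was -7.36 points. Counted over coding sequence and UTR sites only, the 3' UTR held 78.6% of the first-only, 68.7% of the common and 57.6% of the bio2-only sites. Of the sites between genes, 376 were first-only (12.1% of the class), 86 common (5.05%) and 417 bio2-only (16.5%).

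**Figure D2:**
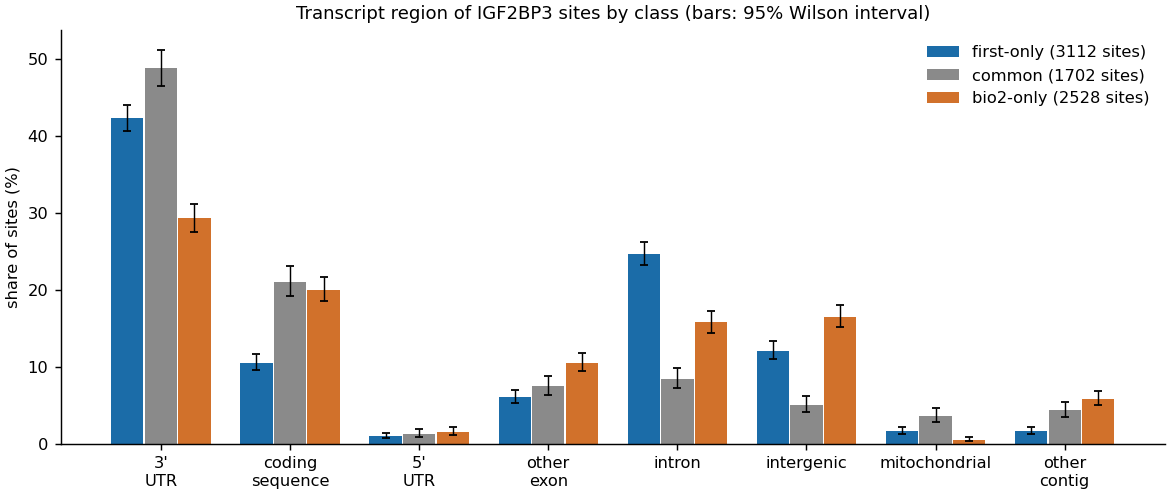
Share of sites (y axis, %) by transcript region at the site midpoint for the first-only, common and bio2-only sites, with 95% Wilson intervals as bars. First-only sites have the highest intron share (24.7%) and bio2-only sites the lowest 3' UTR share (29.3%). As a share of all sites, coding sequence is alike in common (21.03%) and bio2-only sites (20.02%). Among coding sequence and UTR sites alone it holds 29.6% and 39.3%.

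Small nucleolar RNAs (snoRNAs), which guide the modification of ribosomal and spliceosomal RNA and are mostly processed from introns of host genes, held clusters in the bio2 pair and none in the first. The midpoint lay in an annotated snoRNA for 0 of 6467 and 0 of 6831 first-pair clusters and for 121 of 6457 (1.87%) and 125 of 6009 (2.08%) bio2 clusters. As sites, 92 of 2528 bio2-only sites (3.64%, 2.98% to 4.44%) were in snoRNAs, against 0 first-only and 0 common sites. Of these, 72 were in C/D box snoRNAs named SNORD, 11 of them copies of SNORD116, and 18 in H/ACA box snoRNAs named SNORA. The 8 libraries of the other proteins had between 3 and 10 snoRNA clusters each, at most 0.175% of a library. The snoRNA class was singled out after its values had been seen, and no test was made of it. The difference between the pairs was 2.15 points with single-copy clusters alone.

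Hosts of snoRNAs were looked at after their values had been seen, and they did not all lean one way. Noncoding exons of GAS5 and SNHG1, both long noncoding RNAs that host snoRNAs in their introns, had 6 and 5 bio2-only sites and no site of another class. TAF1D had 6 bio2-only sites and 1 first-only site in such exons, and the noncoding exons of RPL13A, EIF4A2 and RPL17 held 4, 3 and 3 bio2-only sites. The coding sequence and UTRs of RPL13A had 1 first-only site and none of the bio2 pair. SNHG14, the host of the SNORD116 copies, had 2 bio2-only, 3 common and 3 first-only sites in noncoding exons. Noncoding transcripts of such genes can span the snoRNA, so these sites and the snoRNA sites can be the same contacts.

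Other small RNAs leaned the same way with smaller counts. Bio2-only sites lay in 14 cases in genes annotated as snRNA or their pseudogenes, with RN7SK counted there by the annotation, against 0 first-only and 0 common sites. RNU4-1, RNU5A-1, RNU11 and RNU12 were among these. Ribosomal 5S or 5.8S genes and pseudogenes held 16 bio2-only, 4 common and 0 first-only sites. The group of 7SK, 7SL, Y and vault RNAs held 11 bio2-only, 2 common and 2 first-only sites, with VTRNA1-1, VTRNA1-2 and VTRNA1-3 among the first of these. Taken over every small noncoding type, including microRNA genes, 134 bio2-only sites (5.30%), 6 common sites (0.35%) and 5 first-only sites (0.16%) were of this kind. Leaving such clusters out changed the coding sequence, 3' UTR and intron differences to 10.5, -11.4 and -8.08 points.

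The 45S ribosomal RNA genes, which encode the 18S, 5.8S and 28S RNAs, were covered by both pairs and more densely by the bio2 pair. Over the 5 copies that RefSeq names in GRCh38.p14 (RNA45SN1 to RNA45SN5), the first libraries had 149 and 153 clusters (2.30% and 2.24%) and the bio2 libraries 273 and 255 (4.23% and 4.24%). As sites, 118 were bio2-only, 78 common and 13 first-only. Sites in copies that lie on a chromosome are also counted in the region classes above. These copies are near-identical and share reads, so one contact can be listed up to 5 times. In RNA45SN1, 24 sites were bio2-only, 10 of them in 18S and 13 in 28S. In the same copy 14 were common, with 3 in 18S and 10 in 28S, and 3 were first-only, all in 28S.

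Mitochondrial transcripts showed the opposite lean, on one strand. On the strand opposite to the reference, which carries ND6 and few other genes, the first libraries had 53 and 65 clusters and the bio2 libraries 8 and 6. Sites there were first-only in 40 cases, bio2-only in 3 and common in 2. On the reference strand, which carries most mitochondrial mRNAs and both rRNAs, the libraries had 96, 95, 126 and 127 clusters. There 59 sites were common, 11 first-only and 10 bio2-only.

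The first-only class had the largest share of sites in sequence repeated many times through the genome. A site took the lowest copy number in hg38 among the central 20 nt of the clusters overlapping it. Common sites have clusters of all 4 libraries, so their lowest is taken over more libraries. The number was above 100 for 240 first-only sites (7.71%, 6.83% to 8.70%), 22 bio2-only sites (0.87%, 0.58% to 1.31%) and 13 common sites (0.76%, 0.45% to 1.30%). In 3' UTRs the counts were 117 of 1317 (8.88%) first-only, 3 of 741 (0.40%) bio2-only and 9 of 831 (1.08%) common sites. With more than a single copy as the limit the classes were close over all regions, at 30.2% of first-only and 32.8% of bio2-only sites, but not in 3' UTRs, at 26.4% and 15.4%. Per the study's methods, reads with more than 10 equally good placements were dropped, so a site here rests on reads that were more specific than the 20 nt centre.

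Motif content differed between the classes by region. In 3' UTRs, CAUH was in the 41 nt window of 762 of 1317 first-only sites (57.9%, 55.2% to 60.5%), 638 of 831 common sites (76.8%, 73.8% to 79.5%) and 571 of 741 bio2-only sites (77.1%, 73.9% to 79.9%). In coding sequence the shares were 63.7%, 79.9% and 76.1%. In mature mRNA the share was thus lowest in the first-only class. With single-copy sites alone the 3' UTR shares were 62.8%, 76.8% and 78.5%. All were above the shares in 41 nt tiles of the 2603 genes with a site. Those were 39.1% in 3' UTRs and 34.3% in coding sequences. The tiles were not matched for base content, and its part was not tested. G made up 20.5% of 3' UTR tiles, against 9.50%, 6.78% and 9.99% of the windows of the 3 classes. In coding sequence G was at 25.1%, against 8.52%, 8.48% and 13.5%.

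In introns and between genes the order was different. CAUH was in 76.7% of first-only, 61.8% of common and 61.2% of bio2-only intron sites, and in 70.2%, 68.6% and 38.6% of sites between genes. The long noncoding RNA introns named above were not taken out of the intron shares. The intron difference of -15.6 points (-21.2 to -9.97), bio2-only minus first-only, was -7.30 points without bio2 library 1, -8.00 points without bio2 library 2 and -0.07 points (-3.61 to 3.40) when a cluster in 1 library made a site. In 3' UTRs the difference was 19.2 points (15.1 to 23.1), and 22.3 points under that looser demand.

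The windows also differed in base content, most in C and G. C made up 36.8% of the bases of first-only windows, 33.6% of common and 29.3% of bio2-only windows, and G 7.46%, 9.02% and 16.0%. In coding sequence C was at 42.8%, 36.1% and 33.0%, against 24.9% in the tiles. GGAC, a core of the m6A consensus, was in 3.25% of first-only, 5.17% of common and 8.27% of bio2-only windows, and in 15.3% of coding sequence tiles and 8.003% of 3' UTR tiles. A second element, GGCA or CGGC spaced before CA (9 to 25 and 15 to 25 nt apart), was in 4.40%, 3.61% and 2.43% of the 3' UTR windows of the 3 classes, below the 5.70% of tiles. The order was the other way over all windows, at 3.08%, 4.35% and 4.98%, and in introns, at 0.65%, 4.17% and 6.27%. Motifs were read on the transcribed strand, and a match is a description of letters in the window. The tiles hold more G than the windows, and no motif share was matched for base content. The intron shares include the long noncoding RNA introns named above.

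**Figure D3:**
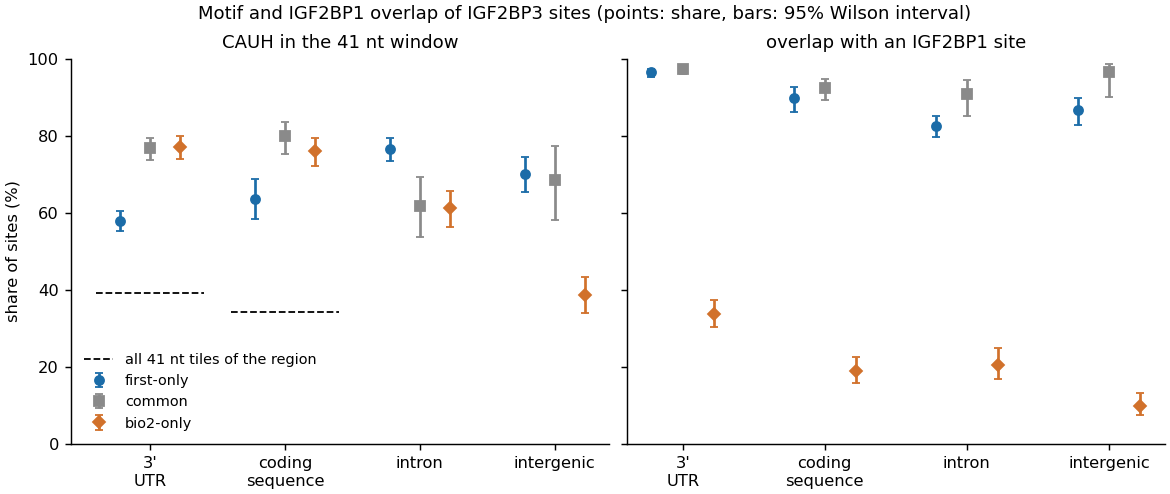
Left, the share of sites (y axis, %) with CAUH in the 41 nt window. Right, the share overlapping an IGF2BP1 site. Points are first-only, common and bio2-only sites in 4 regions with 95% Wilson intervals. The dashed lines on the left are all 41 nt tiles of 3' UTRs and coding sequences in the same genes, not matched for base content. First-only sites are lowest for CAUH in 3' UTRs (57.9%), and bio2-only sites are lowest for IGF2BP1 overlap in all 4 regions.

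Overlap with the sites of the paralogue IGF2BP1 separated the pairs most. IGF2BP1, whose libraries carry no bio label either, had 10603 sites found in both of its libraries. Of the clusters, 84.0% and 82.9% of the first pair and 44.8% and 45.7% of the bio2 pair overlapped one, a difference of -38.2 points (exact permutation test, p = 0.333). Among sites, 2820 first-only (90.6%, 89.5% to 91.6%), 1625 common (95.5%, 94.4% to 96.4%) and 566 bio2-only sites (22.4%, 20.8% to 24.1%) did. In 3' UTRs the shares were 96.6%, 97.4% and 33.7%, and in coding sequence 89.9%, 92.5% and 18.97%. With a cluster in 1 IGF2BP1 library counted, 97.6%, 98.8% and 36.8% of the classes overlapped.

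Over all regions, the shares for the other proteins of the series were also lowest in the bio2-only class. Sites of IGF2BP2, 3174 in all, overlapped 38.2% of first-only, 43.3% of common and 3.01% of bio2-only sites. For METTL1, the m7G methyltransferase, the shares were 14.9%, 21.5% and 6.01%, and for its partner WDR4 18.8%, 25.1% and 4.63%. In introns, with the long noncoding RNA introns named above included, the METTL1 order differed. There it was 6.37% of first-only, 34.7% of common and 11.5% of bio2-only sites. Among clusters at or above their library's median width, the IGF2BP1 difference between bio2-only and first-only sites was -39.9 points in place of -68.2. The widths of the sites moved with the classes, with medians of 45 nt (first-only), 41 nt (common) and 34 nt (bio2-only), and their part in these overlaps was not tested beyond that.

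Along the 3' UTR the classes were spread alike. The median position on the canonical transcript, as a fraction of the 3' UTR counted from the stop codon, was 0.41 for first-only, 0.40 for common and 0.40 for bio2-only sites. Within 100 nt of the stop codon lay 4.53% of first-only, 7.70% of common and 9.96% of bio2-only 3' UTR sites. The 3' UTRs themselves differed in median length, at 3395 nt, 2997 nt and 2614 nt, and the coding sequences with sites at 2739 nt, 2295 nt and 1962 nt. Sites overlapping a site of the other pair were common by definition, so the distances here cover only sites without such overlap. An exonic site of the other pair lay in the same gene for 662 of 1675 first-only exonic sites (39.5%), at a median distance of 996.5 nt, and within 50 nt for 47. For bio2-only exonic sites the counts were 534 of 1286 (41.5%), 958.5 nt and 34.

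At the level of genes, 2603 protein-coding genes had an exonic site (coding sequence or UTR) of either pair. The first pair alone had a site in 834 of them (32.0%) and the bio2 pair alone in 669 (25.7%). Both pairs had a common site in 957 (36.8%), and 143 (5.49%) had sites of both pairs at different places. These shares are the background for the gene lists. Seen from each pair, 56.9% of first-pair genes and 62.2% of bio2 genes were also genes of the other pair. Of the 834 first-pair genes, 531 had no exonic cluster in either bio2 library, and of the 669 bio2 genes, 477 had none in either first library. Most of these genes had a single site, 698 of 834 and 600 of 669. The order of the 2 shares depended on the libraries. Without bio2 library 1 or 2, where one library made the bio2 sites, the first pair alone had 22.96% or 21.7% of the genes and the bio2 pair alone 34.1% or 36.2%, and with 1 library enough for either pair 24.1% and 28.2%.

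The genes of one pair alone are defined by the same sites, most of them by a single site. Their coding sequence shares thus largely restate the regional split. A coding sequence site was present in 184 of the 834 first-pair genes (22.1%) and in 301 of the 669 bio2 genes (44.99%). An exonic IGF2BP1 site was present in 796 of 834 (95.4%), in 279 of 669 (41.7%) and in 1070 of the 1100 genes of both pairs (97.3%). Among genes of both pairs, 721 had 3' UTR sites and no coding sequence site in the first pair, and 69 of these (9.57%) had a coding sequence site in the bio2 pair. In the other direction, 34 of 681 (4.99%) did.

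mRNAs of liver plasma proteins, which hepatocytes translate at the endoplasmic reticulum and secrete, had more sites in the bio2 pair. Of 43 listed genes, 25 had a site, and 9 of these (36%) were bio2 alone, 2 (8%) first pair alone and 14 had a common site. Over all 2603 genes, 25.7% were bio2 alone and 32.0% first pair alone. Their sites were 50 bio2-only, 39 common and 10 first-only, and coding sequence held 40, 29 and 6 of them. Over all exonic sites, coding sequence held 506 of 1286 bio2-only (39.3%), 358 of 1210 common (29.6%) and 328 of 1675 first-only sites (19.6%). The members with the most sites were APOB, FN1 and FGA, described below with their roles, and SERPINA1, the protease inhibitor alpha-1 antitrypsin, which had 7 and 6 clusters in the first libraries and 7 and 7 in the bio2 libraries. APOB alone gave 19 of the 50 bio2-only sites. Other members were picked after their values had been seen. HP, the haemoglobin scavenger haptoglobin, CP, the copper-carrying ferroxidase ceruloplasmin, and AGT, the precursor of angiotensin, had 0 clusters in both first libraries. They had 2 and 2, 2 and 2, and 4 and 2 clusters in the bio2 libraries. Other members went the other way or were mixed. The 2 genes of the first pair alone were GC, with 1 and 1 clusters against 0 and 0, and A2M, with 2 and 3 against 5 and 3. F5 had 2 and 3 against 1 and 1, and FGB 3 and 3 against 2 and 2.

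The few genes of the microRNA pathway leaned the other way. Of 7 with a site, 6 (85.7%) were genes of the first pair alone, beside 32.0% of all 2603 genes. None were of the bio2 pair alone, beside 25.7%. DICER1, the enzyme that cuts precursor microRNAs, had 2 common sites and clusters in all 4 libraries (2, 2, 4 and 4). TNRC6B, an Argonaute partner in silencing, had 5 and 4 clusters in the first pair and 0 and 0 in the bio2 pair. AGO2, which carries the microRNA, had 2 and 3 against 0 and 1. DGCR8, which recognises primary microRNAs, had 1 and 1 against 0 and 0. Named to complete the list after its values had been seen, DROSHA and TNRC6A also had 1 and 1 against 0 and 0. LIN28B had 1 and 1 against 0 and 1. Of 8 m6A and m7G factors with a site, 5 (62.5%) were genes of the first pair alone, beside 32.0% of all genes. CBLL1 had 3 and 2 clusters against 0 and 0, ALKBH5 1 and 1 against 1 and 0, and FTO 1 and 1 against 0 and 0. YTHDF3, an m6A reader, had a common site and 2 and 2 clusters against 1 and 1. QKI, also a gene of the first pair alone by sites, had 2 and 2 clusters against 2 and 1. METTL14, an m6A writer subunit named here because it stood alone, was the 1 gene of the bio2 pair alone.

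Among splicing factors of the SRSF and HNRNP families, 5 of 10 genes (50%) were bio2 alone and 2 (20%) first pair alone. Over all genes the shares were 25.7% and 32.0%. HNRNPU had 0 and 0 clusters against 4 and 3, HNRNPK 0 and 0 against 2 and 2, and HNRNPC 1 and 1 against 3 and 2. SRSF10 had 2 and 2 against 0 and 0. Of 19 cytosolic ribosomal protein genes, 10 were bio2 alone (52.6%), 6 first pair alone (31.6%) and 3 common, and 7 of their 13 bio2-only sites lay in coding sequence against 0 of the 13 first-only sites, beside 39.3% and 19.6% over all exonic sites. RPS29 alone gave 6 of the 13 first-only sites, all in the 3' UTR. Of these 6, 5 had a centre with more than 100 copies in hg38. RPL27A had 1 and 0 clusters against 2 and 2, and RPL14 2 and 4 against 0 and 0. Of 17 translation factors, 6 were bio2 alone, 3 first pair alone and 8 common. EEF2, which moves the ribosome along the mRNA, had 4 and 5 clusters against 7 and 8, and EIF1, which helps select the start codon, 0 and 0 against 2 and 2.

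The other lists follow with the genes of the first pair alone and of the bio2 pair alone. Beside them stand the shares over all 2603 genes, 32.0% first pair alone and 25.7% bio2 alone. SCD, the stearoyl-CoA desaturase, had 9 and 9 clusters in the first libraries and 8 and 10 in the bio2 libraries. Integrins, laminins and collagens had 3 bio2 genes, 0 first-pair genes and 2 common genes among 5 with a site. Of 82 zinc finger genes, 35 (42.7%) were first pair alone and 22 (26.8%) bio2 alone. For 58 solute carriers the counts were 15 and 13, for 15 genes of cholesterol and fatty acid metabolism 1 (6.67%) and 4 (26.7%), and for 18 let-7 and oncofetal targets 5 and 3. Insulin and IGF receptor signalling had 4 and 1 among 9, RAB GTPases 4 and 1 among 15, and proteasome subunits 4 and 5 among 10. Transmembrane TMEM genes had 10 and 7 among 32, ubiquitin-specific proteases 3 and 4 among 13, protein folding in the endoplasmic reticulum 3 and 2 among 12, protein translocation 2 and 1 among 9, cyclins and CDKs 3 and 1 among 9, and RNA exosome and deadenylation 2 and 2 among 8. Replication-dependent histones had 1 gene with a site, of the bio2 pair. Mitochondrial mRNAs could not be counted this way, because sites on the mitochondrial genome were kept apart from coding sequence and UTRs. MT-ND4 and MT-ND5, for example, had 6 common sites each. The lists were not tested, and with few genes each their shares are descriptions.

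**Figure D4:**
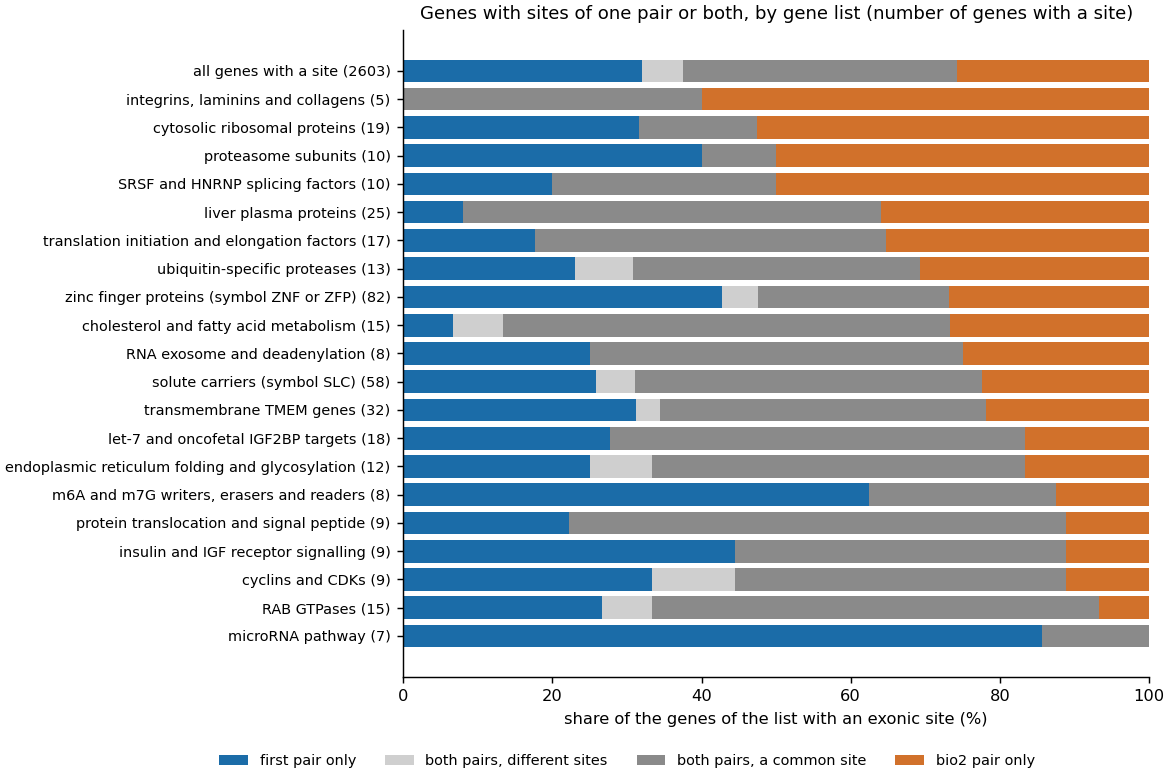
Share of the genes of a list with an exonic site (x axis, %) that had sites of the first pair alone, of both pairs at different places, of both pairs with a common site, or of the bio2 pair alone. The number of genes with a site stands beside each list, and lists with at least 5 such genes are drawn. The top bar is all 2603 genes, with 32.0% first pair alone and 25.7% bio2 alone.

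IGF2, the growth factor mRNA that gave the family its name, was the gene with the most first-only sites. It had 16 first-only, 12 common and 0 bio2-only sites, with 33 and 31 clusters in the first libraries and 17 and 19 in the bio2 libraries. Without bio2 library 1 the first-only count was 10, and with clusters at or above the median width IGF2 had 5 first-only sites and 1 bio2-only site. Of the first-only sites, 11 were in the 3' UTR and 1 in coding sequence, all 16 were single-copy and at an IGF2BP1 site, and 4 held CAUH. The other genes with the most first-only sites were mRNAs with 3' UTR sites. LCOR, a nuclear receptor corepressor, had 12 and 12 clusters against 6 and 6, and NFAT5, a transcription factor of the osmotic stress response, 12 and 12 against 7 and 5. PAICS, an enzyme of purine synthesis, had 8 and 7 against 3 and 2, APOOL, a mitochondrial inner membrane protein, 7 and 8 against 2 and 2, and PLBD2, a lysosomal protein, 15 and 15 against 11 and 9. All were chosen for their first-only sites, so the direction of these counts follows from the choice.

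APOB, the large structural protein of low-density lipoprotein, was the gene with the most bio2-only sites and the most common sites. It had 19 bio2-only, 17 common and 2 first-only sites, and its clusters numbered 23 and 22 in the first libraries and 44 and 43 in the bio2 libraries. All 19 bio2-only sites were in coding sequence, 7 were at an IGF2BP1 site and 10 held CAUH, while all 17 common sites were at an IGF2BP1 site and 12 held CAUH. PEG10, an imprinted gene of retrotransposon origin, had 9 bio2-only, 6 common and 1 first-only sites, with 7 and 8 clusters against 16 and 19. Its bio2-only sites were 7 in the 3' UTR and 2 in coding sequence, and with the canonical transcript alone PEG10 had 2 bio2-only sites and 1 first-only site. MAN1A1, a mannosidase of the Golgi, had 8 bio2-only and 2 common sites, with 2 and 4 clusters against 11 and 10. These genes too were chosen for their class, here bio2-only sites, and the direction of their counts follows from that.

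FN1, the extracellular matrix protein fibronectin, had 5 bio2-only and 5 common sites, and 6 and 6 clusters against 18 and 11. Without bio2 library 2 it had 13 bio2-only sites. FGA, the fibrinogen alpha chain, had 5 bio2-only sites, 1 common and 1 first-only, with 2 and 2 clusters against 7 and 7. SPTBN1, a spectrin of the membrane skeleton, had 5 bio2-only sites and 5 and 3 clusters against 7 and 11. MBNL3, a regulator of alternative splicing, was among the genes with the most common sites, with 8 common, 2 first-only and 0 bio2-only sites and 11, 11, 10 and 9 clusters. With clusters at or above the median width alone, MBNL3 had 2 first-only and 4 bio2-only sites.

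Some genes had sites of one pair and none of the other. TFRC, the transferrin receptor, had 5 bio2 sites, 4 of them in the 3' UTR, with 0 and 0 clusters in the first pair and 6 and 5 in the bio2 pair. IGFBP1, a secreted binder of insulin-like growth factors, had 4 bio2 sites and 0 and 1 clusters against 6 and 5. CD58, a cell adhesion ligand, had 3 sites, all in coding sequence, and 0 and 0 clusters against 3 and 3. AGFG1, ARL6IP1 and ATP11A had 3 bio2 sites each and between 0 and 2 clusters in a first library. These genes were chosen for clusters in both bio2 libraries and no first-pair site, so their counts describe that choice.

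On the first-pair side, PPARGC1A, a coactivator of mitochondrial biogenesis, had 4 sites and 4 and 4 clusters against 0 and 0. ZNF652 had 5 sites and 7 and 6 clusters against 0 and 0, and PSMB2, a proteasome subunit, 5 sites and 5 and 5 clusters against 0 and 1. RPS29 had 6 sites with 6 and 10 clusters against 1 and 0, and AGMAT, a mitochondrial hydrolase of the agmatinase family, 5 sites with 5 and 7 against 0 and 0. For these 2 genes the positions are uncertain, as 5 of 6 and 4 of 5 first-only sites had a centre with more than 100 copies in hg38. HMGA1 had 4 first-pair sites, while bio2 library 1 held 4 clusters in it and bio2 library 2 none, so the bio2 libraries differed from each other there.

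Genes known as targets of the family or as its members were split as well. IGF2BP1 mRNA had 3 first-only sites, all in the 3' UTR, with 6 and 3 clusters against 0 and 0. IGF2BP2 mRNA had 2 first-only sites and 1 common site, with 3 and 3 clusters against 1 and 1, and IGF2BP3 mRNA had no exonic cluster in any of the 4 libraries. HMGA2, an oncofetal chromatin protein, had 4 first-only, 4 common and 1 bio2-only sites, with 9 and 9 clusters against 6 and 6. LIN28B, which blocks let-7 maturation, had 1 first-only site. MYC had 1 bio2-only site in coding sequence, and ACTB, the beta-actin mRNA, 2 in coding sequence with 0 and 0 clusters against 3 and 3. With single-copy clusters alone ACTB had no site of either pair alone. H19, the imprinted neighbour of IGF2, had 0 and 0 clusters against 1 and 1. CD44 had no exonic cluster in the 4 libraries.

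Several counts of named genes rested on the processing. With single-copy clusters alone RPS29, AGMAT and IGF2BP2 had no site of one pair alone, ARL6IP1 had 1 bio2-only site, and HMGA1, PPARGC1A and ZNF652 had 2 first-only sites each. With clusters at or above the median width, ARL6IP1 and LIN28B had no site of one pair alone, TFRC, IGFBP1 and FGA had 2 bio2-only sites each, and LCOR and PAICS 2 first-only sites each. With the canonical transcript alone RPS29 had none and LCOR had 3 first-only sites. Without bio2 library 2, HMGA1 had 2 first-only and 2 bio2-only sites, and without bio2 library 1 SPTBN1 had 9 bio2-only sites. Without first library 2, IGF2BP1 had 6 first-only sites.

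**Figure D5:**
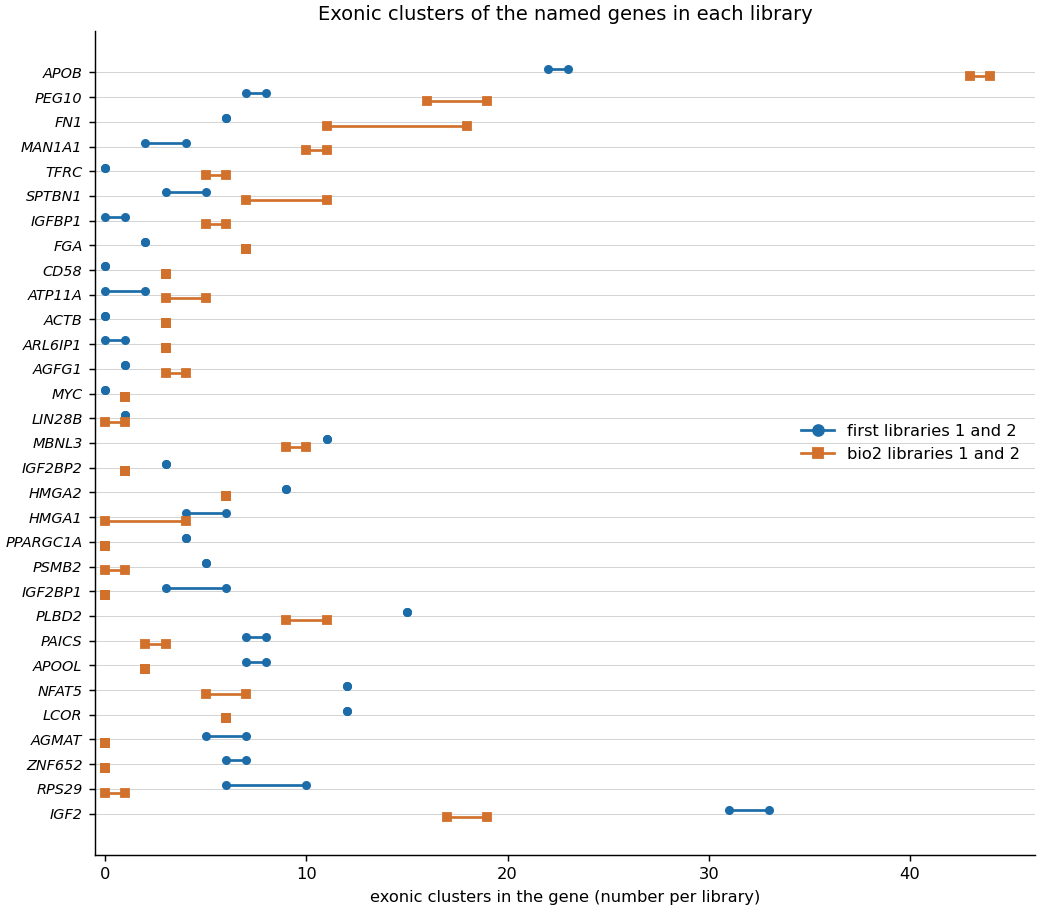
Number of exonic clusters per library (x axis) in the named protein-coding genes, with circles for the 2 first libraries and squares for the 2 bio2 libraries, joined within a pair and ordered by the difference between pairs. APOB has 23 and 22 against 44 and 43 clusters at one end, and IGF2 33 and 31 against 17 and 19 at the other.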

How the data were processed

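PAR-CLIP libraries of IGF2BP3 in HepG2 were compared, 2 with no bio label and 2 labelled bio2, with groups taken from the sample titles. The deposited files are the authors' PARalyzer cluster lists of hg38 positions and strands, 1 list per library, with no score or other value, so read depth is unknown. Per the study's methods, reads were quality filtered and clipped, collapsed to remove PCR duplicates, kept above 15 nt, and mapped with bowtie with at most 3 mismatches and 10 placements, best stratum. The submitters' processing notes name Bowtie and hg38. The version of bowtie and the PARalyzer version and settings were not given in the sources used here.

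Starts were counted from 1. A cluster or site was assigned at its midpoint to coding sequence, 3' UTR, 5' UTR, other exon, intron or none, in that order, from GENCODE 44, with the mitochondrial genome and contigs other than the chromosomes kept apart, and 45S copies came from RefSeq. Copy number is the number of exact occurrences in hg38 of the central 20 nt of a cluster on either strand. A site took the lowest value among the clusters of either pair overlapping it. Motifs were read in 41 nt around the midpoint. Libraries were compared with two-sided exact permutation tests over the 6 splits, with Benjamini-Hochberg adjustment over 7 measures. Site and gene classes were described with Wilson or Newcombe 95% intervals and not tested. Scripts were tested on simulated data. Python 3.11.15, numpy 2.4.6, pandas 2.3.3, scipy 1.17.1, statsmodels 0.14.6 and pysam 0.24.0 were used.

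The members, gene lists and measures were chosen with earlier results of these data known. Named genes were the 6 with the most exonic sites of each class, the 6 with the most sites of one pair and none of the other, a fixed set of known targets, and up to 4 members of a list with the most sites. Genes outside this rule are marked as picked after their values were seen, and so were the snoRNA and other small RNA genes, their hosts and the mitochondrial strands. Some items are not reported here.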

Additional observations from a re-analysis of the deposited data

How the results depend on the processing

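Cluster files hold positions without counts, so depth limits every result: a site missing from a pair sets no bound on binding there, and with 2 libraries against 2 the permutation test cannot fall below 0.333. The replicate numbers did not pair the libraries (correlation of same-numbered deviations -0.0742 over 2603 genes), and permuting within the replicate number (replicate block, 4 arrangements) gave p = 0.5, its smallest value, for all 7 library measures. The causes of the shifts below were not tested. Alternatives for the snoRNA, IGF2BP1 site and CAUH site results, for small RNA clusters and for genes without any cluster were chosen after seeing the data.

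The CAUH difference between libraries, 1.64 points, turned to -1.38 in clusters as deposited and -1.15 in clusters widened by 10 nt. The other library differences kept their sign under every alternative run. Leaving out clusters beyond chromosomes 1 to 22, X and Y moved the snoRNA difference from 1.98 to 2.13 points and the common share of first-pair sites from 36.0% to 34.6%. With single-copy clusters alone the snoRNA difference was 2.15 points. Between bio2-only and first-only sites, coding sequence then differed by 12.9 points, 3' UTR by -7.36, CAUH in 3' UTRs by 14.2 and CAUH in introns by -8.47, and the bio2 pair alone had 27.6% of genes. With clusters at or above the median width, 22.9% of first-pair and 27.6% of bio2 sites were common. The site differences were then 11.8 (coding sequence), -2.68 (3' UTR), -13.6 (intron), -39.9 (IGF2BP1 sites) and 23.2 points (CAUH in 3' UTRs), and 38.4% and 36.9% of genes were of the bio2 and the first pair alone. MBNL3 had 2 more bio2-only than first-only sites there, against a difference of -2 in the reported sites, 0 without bio2 library 2 and -3 with single-copy clusters.

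With 1 library enough, 39.0% of bio2 sites were common, and the differences were 13.3 (coding sequence), -7.88 (3' UTR), -61.1 (IGF2BP1 sites) and -0.0744 points (CAUH in introns), with 28.2% and 24.1% of genes of the bio2 and the first pair alone. With no cluster of the other pair allowed at a site, introns differed by -11.1 points and IGF2BP1 sites by -75.7. With no exonic cluster of the other pair allowed in a gene, 18.3% and 20.4% of genes were of the bio2 and the first pair alone.

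Leaving out each library in turn gave 29.2% to 42.5% of first-pair and 32.7% to 46.0% of bio2 sites in common. The site differences ran from 9.16 to 12.1 points for coding sequence, -12.2 to -11.2 for 3' UTR, -11.4 to -6.72 for intron, -70.2 to -61.0 for IGF2BP1 sites, 17.2 to 22.04 for CAUH in 3' UTRs and -15.7 to -7.30 for CAUH in introns. Genes of the bio2 pair alone ran from 19.5% to 36.2% and of the first pair alone from 21.7% to 38.7%, and the snoRNA difference from 1.87 to 2.08 points.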
